A study of Mus musculus with 21 samples.

Results

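The left ventricular transcriptome of 5 wild-type mice on control diet (WT-CD) is described here as a baseline, and no level is compared with that of another group. Its members were chosen by label: they are the 5 count columns whose names begin with WT and CD, out of 21 libraries in the series. The study asked how empagliflozin, an inhibitor of sodium-glucose cotransport, acts on the hearts of mice with the R403Q mutation in cardiac myosin, a model of hypertrophic cardiomyopathy. The other 16 libraries were 5 WT-EMPA hearts (wild type, empagliflozin at 0.15 mg per g of diet), 7 R403Q-CD hearts and 4 R403Q-EMPA hearts. The WT-CD mice were male 129S6/SvEv animals with no transgene or mutation, littermates of the R403Q mice, and ate a control diet with 10% of its energy from lard and no drug. Each library came from the left ventricle of a separate mouse. Hearts 2 and 3 came from the same cage and the other 3 from 3 different cages, each shared with R403Q-CD mice. The hearts were taken for RNA sequencing at 12 weeks of age after 2 weeks of diet, whereas the labels give the 16 weeks of the full treatment.

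The left ventricle is working muscle. Its cardiomyocytes shorten by sliding actin and myosin filaments past each other, trigger each beat with calcium released from the sarcoplasmic reticulum, and pay for it almost entirely with ATP from mitochondria that burn mainly fatty acids. Many of the proteins involved exist as paralogues, closely related genes of which the heart, skeletal muscle, smooth muscle and other tissues use different members, so the ratio of paralogues describes a muscle type. Endothelial cells, fibroblasts, pericytes, smooth muscle cells and macrophages share the tissue, although cardiomyocytes make up most of its volume. In a bulk library, fewer cells of a type and less RNA per cell cannot be told apart.

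Library totals ran from 29722396 to 40600094 counts (median 31625364), so that 3 counts, used here as a floor, correspond to 0.0739 to 0.101 counts per 1000000 (CPM). The counts came from nonmitochondrial genes only, so transcripts of the mitochondrial genome, abundant in heart, are not part of any share below. Of the 4 marker genes of a male mouse all were above 1 CPM, and Xist, the transcript of the inactive X chromosome, averaged 0.082 CPM, with 1.99 CPM for its antisense partner Tsix. Markers of T and B cells summed to 1.11 CPM, of liver to 0.553 CPM and of lung to 0.0248 CPM. The 6 erythroid markers, mostly haemoglobin genes, summed to 1157, 1029, 693, 924 and 1270 CPM in hearts 1 to 5 (CV, the SD as a percentage of the mean, 21.9%), highest in heart 5 and lowest in heart 3, and 4 of the 6 share 20% or more of their 100-base windows with another gene. Correlations of log2(CPM + 1) between pairs of hearts lay between 0.989 and 0.995. No pair of libraries was a duplicate, the chi-square of their counts per degree of freedom being 16.9 to 34.2 over 10 pairs.

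A total of 19165 genes had at least 1 count in every heart (22457 to 23658 genes per heart). A mean of at least 1 CPM was reached by 13989 genes, at least 10 CPM by 9293, at least 100 CPM by 1690 and at least 1000 CPM by 109. The 13989 genes comprised 12262 protein-coding genes, 979 pseudogenes, 226 long intergenic RNAs and 190 antisense genes. Protein-coding genes held 95.98% ± 0.0967 of the counts (SD, n = 5), pseudogenes of any kind 2.90% ± 0.107 and long intergenic RNAs 0.507% ± 0.0573. Malat1, a nuclear RNA that lies in speckles, was counted at 1192, 1648, 1674, 1434 and 929 CPM in hearts 1 to 5. Neat1, the scaffold RNA of paraspeckles, stood at 974, 979, 1028, 911 and 534 CPM. Both were lowest in heart 5.

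A small set of genes carried a large part of the counts. The most abundant gene, Myh6, held 4.24% ± 0.189 of them (SD, n = 5), the first 10 genes 13.95% ± 0.212, the first 100 genes 31.99% ± 0.634 and the first 1000 genes 61.6% ± 0.800. The first 452 genes held 50% of the counts and the first 5241 held 90%. By heart, the number of genes that held 50% was 443, 491, 438, 416 and 464, highest in heart 2 and lowest in heart 4. The identity of these genes was stable, with 9 genes among the first 10 in every heart. Of the 100 most abundant genes, 95 were protein coding and 70 belonged to one of 25 functional lists: 23 were sarcomere genes, 2 encoded subunits of complex I, 6 subunits of complexes II to IV and 5 subunits of ATP synthase, 8 served fatty acid uptake and oxidation, 6 the tricarboxylic acid cycle, 5 calcium handling and 4 glycolysis.

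**Figure D1:**
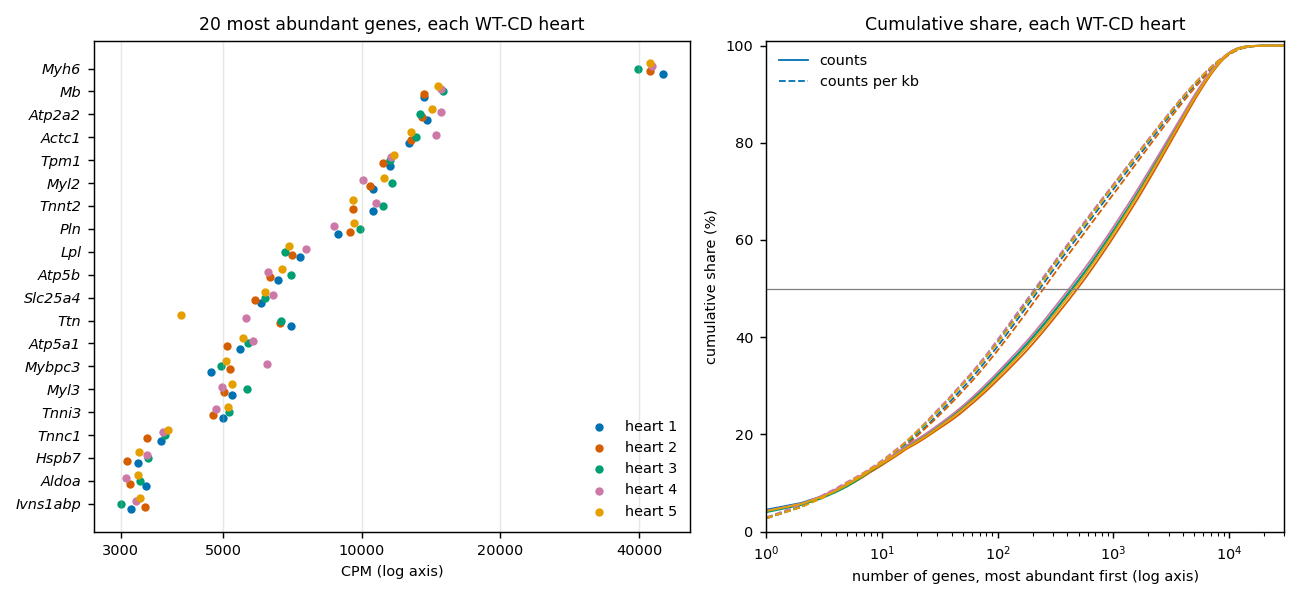
The left panel shows CPM (log axis) of the 20 most abundant genes, with 1 point per WT-CD heart, and the right panel the cumulative share of counts (solid lines) and of counts per kb (dashed lines) against the number of genes taken from the most abundant down (log axis). Myh6 stands apart from the other 19 genes in all 5 hearts, Ttn is the most scattered of the 20, and the 50% line is crossed near 452 genes by counts and near 226 by counts per kb.

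First in every heart was Myh6, which encodes alpha-myosin heavy chain, the fast motor of the adult mouse ventricle. It was counted at 45028, 42282, 39709, 42764 and 42177 CPM in hearts 1 to 5, a coefficient of variation (CV) of 4.47%. All 5 values lay close together, the highest in heart 1 and the lowest in heart 3. Second by counts was Mb, the oxygen-binding protein myoglobin, at 13646, 13672, 14991, 14894 and 14605 CPM. Atp2a2, the calcium pump SERCA2 that refills the sarcoplasmic reticulum, gave 13861, 13536, 13357, 14889 and 14195 CPM. Actc1, cardiac alpha-actin of the thin filament, gave 12672, 12794, 13111, 14474 and 12822 CPM, with heart 4 above the other 4. Tpm1, alpha-tropomyosin, which winds along that filament, varied least among the 20 most abundant genes (11526, 11138, 11492, 11555 and 11764 CPM, CV 1.97%). Myl2 (regulatory light chain of ventricular myosin, 10788 ± 638 CPM), Tnnt2 (cardiac troponin T, 10316 ± 715 CPM) and Pln (phospholamban, the inhibitor of SERCA2, 9303 ± 501 CPM) came next. Lpl, lipoprotein lipase, which frees fatty acids from circulating triglyceride, stood at 7149 ± 304 CPM and Atp5b, the catalytic beta subunit of ATP synthase, at 6578 ± 309 CPM. Of the 20 genes, 18 had a CV below 10%, with a median of 4.53%.

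The exceptions were a pair of sarcomere genes. Ttn encodes titin, the giant protein that spans from the Z disc to the middle of the sarcomere and acts as its spring. It was counted at 7007, 6646, 6669, 5596 and 4055 CPM (CV 20.1%), with heart 5 lowest and heart 4 next. The long nuclear RNAs Malat1 and Neat1 were lowest in the same heart. Genes of ribosomal RNA held 0.152%, 0.191%, 0.128%, 0.234% and 0.248% of the counts in hearts 1 to 5, highest in heart 5 and next in heart 4, and the part of RNA or library quality in these values was not tested. Mybpc3, cardiac myosin binding protein C of the thick filament, was counted at 4703, 5164, 4947, 6244 and 5087 CPM (CV 11.4%), and only heart 4 departed from the rest.

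Counts favour long transcripts, so levels of different genes were compared per length, as counts per kb of merged exon scaled to a common total of 1000000 per heart (TPM). On this scale Mb led at 27204, 27259, 28732, 29135 and 27754 TPM. Actc1 followed at 23295, 23523, 23172, 26110 and 22470 TPM, Myh6 at 19913, 18700, 16883, 18557 and 17779 TPM and Myl2 at 16172, 15926, 17092, 15035 and 16281 TPM. The order of these 4 genes held in 4 of 5 hearts, the exception being heart 3, where Myl2 was above Myh6. The next protein-coding genes were Tnnc1 (cardiac troponin C, the calcium sensor of the thin filament, 10248 ± 270 TPM), Pln (9815 ± 429 TPM), Cox6a2 (muscle form of a cytochrome c oxidase subunit, 7964 ± 461 TPM), Slc25a4 (the ADP and ATP exchanger of the inner mitochondrial membrane, 7596 ± 233 TPM) and Myl3 (7430 ± 315 TPM). Ttn, whose merged exons span 116825 bases, fell from rank 12 in CPM to rank 899, at 149.8 ± 32.1 TPM. Of the 20 genes highest per length, 14 were protein coding, 12 were also among the 20 highest in CPM, and 5 were processed pseudogenes, copies of a messenger RNA inserted back into the genome. The remaining one, Gm23935, is a 57-base miRNA gene on chromosome 16 whose value of 10893 ± 3466 TPM rests on 146, 194, 157, 259 and 313 CPM and on its very short length.

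The clearest case of a pseudogene among the abundant genes is that of Fabp3, the fatty acid binding protein of heart muscle. Its reads were listed in nearly equal parts under the gene and under its processed copy Fabp3-ps1. Fabp3 was counted at 1173, 935, 1249, 1228 and 1150 CPM and Fabp3-ps1 at 1264, 980, 1354, 1218 and 1225 CPM. The pseudogene held 51.9%, 51.2%, 52.0%, 49.8% and 51.6% of the sum, above the gene in 4 of 5 hearts. Fabp3 lies at chr4:130308595-130315463 (plus strand, GRCm38) and Fabp3-ps1, which spans the 402 bases of the coding sequence without an intron, at chr10:86731987-86732388 (minus strand). Coding bases 40 to 336 of both are shown because they hold the only 3 bases, in capitals, that set the copies apart. Both are from the C57BL/6J reference, whereas the mice were 129S6/SvEv. Over the 402 bases the copies are 99.3% identical and share an unbroken run of 256 bases, longer than a read.
Fabp3: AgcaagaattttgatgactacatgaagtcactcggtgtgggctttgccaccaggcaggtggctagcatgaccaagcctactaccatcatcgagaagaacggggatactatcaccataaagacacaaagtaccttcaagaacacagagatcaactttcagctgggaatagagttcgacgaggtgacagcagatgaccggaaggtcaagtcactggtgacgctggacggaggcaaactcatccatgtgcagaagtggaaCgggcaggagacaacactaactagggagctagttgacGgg
Fabp3-ps1: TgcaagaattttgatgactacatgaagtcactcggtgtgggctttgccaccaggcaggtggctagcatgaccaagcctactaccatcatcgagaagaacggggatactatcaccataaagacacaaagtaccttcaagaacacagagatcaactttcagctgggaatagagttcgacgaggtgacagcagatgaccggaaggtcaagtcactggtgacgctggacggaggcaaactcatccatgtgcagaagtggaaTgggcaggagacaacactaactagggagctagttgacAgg
A count of either gene is therefore uncertain. The same held for Tpt1, a widely used growth-related protein, where 89.0% ± 0.904 of the sum was listed under Tpt1-ps3 (SD, n = 5), for the antioxidant enzyme gene Gpx4 (83.3% ± 0.322 under Gpx4-ps2), for Oaz1 (80.9% ± 0.373 under Oaz1-ps) and for the pyruvate carrier gene Mpc1 (81.4% ± 0.737 under Mpc1-ps). For Got2, the mitochondrial aspartate aminotransferase, 26.2% ± 0.358 was listed under Got2-ps1. Uniquely aligned pairs alone were counted, so genes with many near-identical copies can also lose counts altogether. Gapdh, a glycolytic enzyme gene often used as a reference, stood at 11.9, 8.59, 10.2, 9.71 and 8.18 CPM, with 78.0% of its 100-base windows present elsewhere in the annotated transcripts. Among the 78 genes of cytosolic ribosomal proteins, 54 had at least 20% of such windows shared, and 29 of the 78 were below 10 CPM. The level of a gene of this kind is uncertain as a level of its RNA, and so is a list sum that holds such genes.

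The paralogue families are taken by role, with the share of each member computed per length within its family. There were 81 families with 260 members. In 40 of them 1 member held at least 90% of the family, in 7 no member reached 50%, and the same member led in all 5 hearts in 76. The median share of the leading member was 89.4%, with a median SD of 1.13 percentage points. Among the families listed, those led at 90% or more were 11 of 14 for contraction, 7 of 11 for calcium and 4 of 12 for excitation. They were 18 of 30 for energy and 0 of 14 for regulation. With the median length of the coding transcripts the numbers were 11, 7, 3, 16 and 1 in the same order. Of the 260 members, 13 had 20% or more of their 100-base windows shared with another gene. The shares in a family that holds such a member are uncertain.

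**Figure D2:**
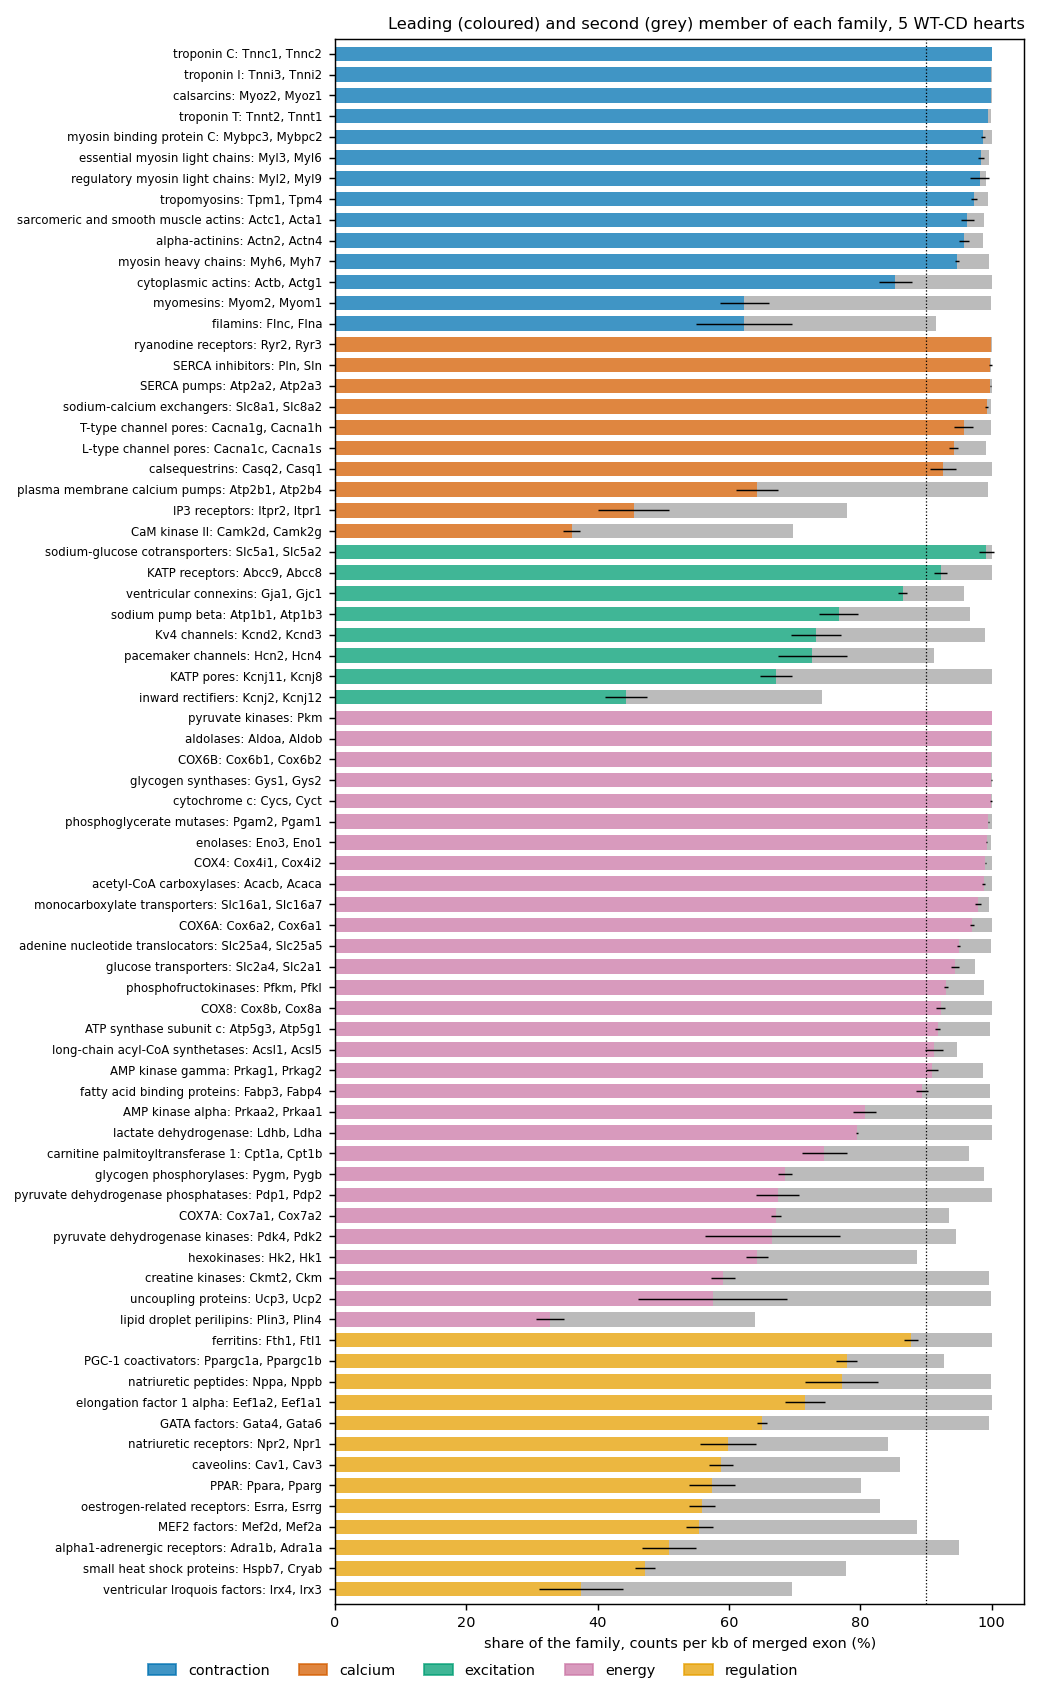
Each bar is 1 of 75 families, the other 6 not being shown: the coloured part is the mean share of its leading member and the grey part that of the second, in percent of the family's counts per kb of merged exon over 5 WT-CD hearts, with error bars of 1 SD on the leading share and a dotted line at 90%. Families of the sarcomere and of calcium release lie mostly beyond the line and none of the regulatory families does.

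The motor family was led by Myh6 at 94.7% ± 0.246 of the myosin heavy chains (SD, n = 5). Myh7, the slow beta form that dominates the fetal mouse heart, made up 4.88% ± 0.234 and Myh7b 0.382% ± 0.145. Myh7 was counted at 2812, 2995, 2568, 2752 and 2859 CPM, a narrow range in which no heart stood apart. The fast skeletal chain Myh2 was near 0, at 0.0435 TPM. Myh6 and Myh7 lie next to each other on chromosome 14, and their coding sequences are 91.6% identical. The longest stretch they share is printed because a read pair that falls wholly inside it cannot be given to either gene. It covers coding bases 4246 to 4490 of Myh6 (chr14:54948327-54948725, minus strand, GRCm38, with an intron in between) and 4240 to 4484 of Myh7 (chr14:54974947-54975347).
Myh6 and Myh7: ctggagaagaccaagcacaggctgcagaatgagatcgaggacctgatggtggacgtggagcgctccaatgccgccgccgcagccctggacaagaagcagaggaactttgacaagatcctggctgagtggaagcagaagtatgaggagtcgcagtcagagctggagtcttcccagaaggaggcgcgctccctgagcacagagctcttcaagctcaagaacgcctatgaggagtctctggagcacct
Mhrt, a noncoding RNA transcribed antisense to Myh7 and known from the adult heart, was listed at 52.0, 50.4, 76.2, 49.0 and 41.1 CPM, highest in heart 3. Its exons overlap the Myh7 locus on the other strand, and the counting is given as strand-specific.

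In the thin filament, Actc1 held 96.3% ± 0.971 of the sarcomeric and smooth muscle actins. Acta1, the skeletal form that the fetal and the stressed heart also use, held 2.50% ± 0.735 and Acta2, the smooth muscle form, 1.16% ± 0.342. Acta1 gave 317, 303, 171, 478 and 366 CPM, so heart 4 was 2.80 times heart 3. In the troponin families Tnnc1 and Tnni3 were all but alone, with 0.00427% ± 0.00201 of troponin C left to Tnnc2 and 0.0268% ± 0.00340 of troponin I to Tnni2, and Tnnt2 held 99.5% ± 0.0558 of troponin T, with 0.529% ± 0.0572 for the slow skeletal Tnnt1. Tpm1 made up 97.3% ± 0.431 of the tropomyosins, Actn2 95.8% ± 0.798 of the alpha-actinins that anchor the thin filament, and Mybpc3 98.7% ± 0.314 of the myosin binding proteins C. Myl2 made up 98.2% ± 1.45 of the regulatory light chains, of which the atrial member Myl7 held 0.820% ± 1.27. Its SD was larger than its mean, since heart 5 alone carried most of it. Myl3 made up 98.5% ± 0.459 of the essential light chains. Mixed families were the filamins, with 62.3% ± 7.32 for the muscle form Flnc and 29.2% ± 6.99 for Flna, and the myomesins of the M band, with 62.4% ± 3.71 for Myom2 and 37.5% ± 3.69 for Myom1.

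Calcium release and reuptake were also one-sided. Ryr2, the release channel of the sarcoplasmic reticulum, held 99.9% ± 0.0103 of the ryanodine receptors, Atp2a2 99.8% ± 0.0411 of the SERCA pumps and Pln 99.8% ± 0.288 of their small inhibitors. Sln, sarcolipin, the inhibitor found in atrial muscle, averaged 0.157% ± 0.286 of that last family, but 0.0295% without heart 5, which stood at 0.665%. Casq2 held 92.6% ± 1.98 of the calsequestrins that store calcium, Slc8a1 99.2% ± 0.192 of the sodium-calcium exchangers and Cacna1c 94.2% ± 0.656 of the L-type calcium channel pores. CaM kinase II was divided between Camk2d (36.0% ± 1.29), Camk2g (33.8% ± 1.75) and Camk2a (25.8% ± 0.802). With the median length of the coding transcripts in place of the merged exons, Camk2d rose to 50.3%. The IP3 receptors were led by Itpr2 at 45.5% ± 5.38.

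Among genes of excitation, Gja1, connexin 43 of the gap junctions, held 86.5% ± 0.738 of the ventricular connexins. The inward rectifiers that set the resting potential were spread over Kcnj2 (44.3% ± 3.18), Kcnj12 (29.9% ± 3.01) and Kcnj14 (24.5% ± 2.40). Of the ATP-sensitive potassium channel, Kcnj11 held 67.1% ± 2.48 of the pores and Abcc9 92.2% ± 0.990 of the sulfonylurea receptors. The pacemaker channels were led by Hcn2 at 72.7% ± 5.27, with 18.5% ± 2.27 for Hcn4. The order of Kcnd2 (73.3% ± 3.81) and Kcnd3 (25.7% ± 3.79), pores of the transient outward current, turned with coding transcript length, which gave Kcnd2 44.2%.

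The target of empagliflozin had almost no counts in these untreated hearts. Slc5a2, which encodes the sodium-glucose cotransporter SGLT2 of the kidney, was listed at 0, 0.0263, 0, 0.0316 and 0 CPM, at or below the floor of 3 counts in every heart. Slc5a1, encoding SGLT1, was listed at 1.26, 1.55, 1.88, 2.56 and 1.5 CPM.

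Energy families were the most numerous. In glucose use, Slc2a4, the insulin-responsive transporter GLUT4, held 94.4% ± 0.635 of the glucose transporters, Pfkm 93.1% ± 0.284 of the phosphofructokinases, Eno3 99.3% ± 0.0460 of the enolases and Pgam2 99.5% ± 0.0878 of the phosphoglycerate mutases. Hk2 led the hexokinases at 64.3% ± 1.70, ahead of Hk1 at 24.3% ± 0.787. Ldhb, the heart form of lactate dehydrogenase, held 79.5% ± 0.184 and Ldha 20.5% ± 0.184. That ratio was among the steadiest of all, with Ldhb at 1337, 1354, 1404, 1402 and 1348 CPM and Ldha at 732, 747, 765, 758 and 722 CPM.

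In the mitochondrion, the muscle forms of cytochrome c oxidase led their families, Cox6a2 at 97.0% ± 0.243, Cox8b at 92.2% ± 0.637 and Cox7a1 at 67.2% ± 0.788. Slc25a4 held 95% ± 0.209 of the adenine nucleotide translocators and Atp5g3 91.8% ± 0.406 of the genes for ATP synthase subunit c. Of the creatine kinases, which carry high-energy phosphate from mitochondria to filaments, the mitochondrial Ckmt2 held 59.1% ± 1.81 and the cytosolic Ckm 40.5% ± 1.74. By coding transcript length the pair stood level, at 49.6% and 49.8%. Ckmt2 was counted at 2087, 2015, 2532, 2426 and 2035 CPM and Ckm at 2861, 2835, 3082, 3102 and 2972 CPM.

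The share of the leading member varied widely in some energy families. The kinases that switch off pyruvate dehydrogenase were led by Pdk4 at 66.6% ± 10.3, with 28% ± 8.69 for Pdk2. Pdk4 was counted at 2962, 1033, 1493, 2150 and 907 CPM, whereas Pdk2 stayed between 559 and 585 CPM. Hearts 1 and 4 were thus highest in Pdk4 and hearts 2 and 5 lowest, and the share of Pdk4 ran from 54.9% to 79.4%. Among the uncoupling proteins Ucp3 held 57.6% ± 11.3, from 44.8% to 70.3%. Ucp3 was counted at 114, 40.1, 65.1, 72.8 and 42.7 CPM beside Ucp2 at 107.2, 109.6, 89.8, 89.3 and 109.8 CPM, and Ucp3 led the family in 3 of 5 hearts. Fabp3 held 89.4% ± 0.902 of the fatty acid binding proteins and Fabp4, which is strong in endothelium, 10.3% ± 0.859. With coding transcript length Fabp3 fell to 63.0%. Both values leave out the reads listed under Fabp3-ps1 and are therefore uncertain. Acacb, the acetyl-CoA carboxylase tied to mitochondria, held 98.8% ± 0.234 of its pair, and Acsl1 91.3% ± 1.37 of the long-chain acyl-CoA synthetases.

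The carnitine palmitoyltransferases, which admit long-chain fatty acids to mitochondria, cannot be ordered from these counts. Cpt1a held 74.5% ± 3.44 and Cpt1b, the muscle form, 22.0% ± 3.51. Cpt1b was listed at 9.59, 9.45, 11.5, 10.2 and 7.66 CPM. Per length this was 8.36 ± 1.2 TPM, while the partner enzyme gene Cpt2 stood at 315 ± 30.8 TPM. In the annotation, 81.4% of the exon bases of Cpt1b (chr15:89416405-89425863, minus strand) also belong to Gm44502, a gene that runs on the same strand through Cpt1b and its neighbour Chkb (chr15:89416405-89429696). Gm44502 was listed at 0 in all 5 hearts and Chkb at 4.38 ± 0.50 CPM. The part of this overlap in the low listing of Cpt1b was not tested.

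In regulatory families several members were present side by side. Nppa and Nppb, the natriuretic peptides, stood at 77.2% ± 5.55 and 22.8% ± 5.53. Gata4 held 65.1% ± 0.786 and Gata6 34.6% ± 1.02 of the GATA factors of heart development. Esrra led the oestrogen-related receptors, activators of mitochondrial genes, at 55.9% ± 1.98, and Ppargc1a the PGC-1 coactivators at 77.9% ± 1.63. Hspb7 (47.2% ± 1.47) and Cryab (30.6% ± 1.29) led the small heat shock proteins. The leader changed with coding transcript length in 6 of the 81 families, of which 4 were regulatory: the alpha1-adrenergic receptors, the MEF2 factors, the PPAR receptors and the small heat shock proteins.

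Grouped by function, the 564 genes in the 25 functional lists held 36.2% ± 0.688 of the counts. The sarcomere list, 34 genes, held 14.2% ± 0.257 of the counts and calcium handling, 21 genes, 3.37% ± 0.0776. Mitochondrial ATP production was spread over ATP synthase at 2.06% ± 0.0945, complexes II to IV at 2.09% ± 0.135 and complex I at 1.40% ± 0.0744. The tricarboxylic acid cycle held 2.16% ± 0.0710, fatty acid uptake and oxidation 2.41% ± 0.139, glycolysis 1.30% ± 0.0182 and ketone body use 0.289% ± 0.0212, most of it Oxct1, the enzyme that activates ketone bodies (1545, 1708, 1813, 1899 and 1764 CPM). The glycolysis share includes Gapdh at its uncertain listing, and 4 of the 20 glycolysis genes share 20% or more of their windows with other genes. Per length, the median member of complex I stood at 665 TPM, of complexes II to IV at 1258 TPM, of ATP synthase at 788 TPM and of the tricarboxylic acid cycle at 765 TPM. Of all 585 list places, 568 were taken by genes with a mean of 1 CPM or more. The CV of the list sum was below 10% in 19 of 25 lists and above 20% in 2, the PPAR alpha targets and the glucocorticoid-responsive genes.

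Both lists hold Pdk4, the member with the most counts in each. Without Pdk4 the CV of the sum was 8.78% for the PPAR alpha targets and 6.15% for the glucocorticoid-responsive genes. The PPAR alpha target list held 0.663%, 0.426%, 0.536%, 0.606% and 0.421% of the counts in hearts 1 to 5, and 13 of its 15 genes were at 1 CPM or more. Hearts 1 and 4 were high and hearts 2 and 5 low, as for Pdk4. Without Pdk4 the share was 0.367%, 0.322%, 0.387%, 0.390% and 0.331%, highest in hearts 3 and 4 and lowest in hearts 2 and 5. Angptl4, a secreted inhibitor of lipoprotein lipase, gave 22.3, 7.69, 19.3, 18.9 and 8.05 CPM and Acot1, an acyl-CoA thioesterase, 22.2, 7.43, 14.4, 12.2 and 9.11 CPM. Cidec, a lipid droplet protein of adipocytes, went the other way, at 0.265, 5.32, 1.95, 0.696 and 1.97 CPM, highest in heart 2. The lipogenic list was most variable in Scd1, stearoyl-CoA desaturase, at 19.6, 134, 94.2, 33.0 and 107 CPM, which was lowest in hearts 1 and 4. The diet was given ad libitum. Whether food was withdrawn before a heart was taken, and the hour of taking, are not given in the sources used here. The part of feeding state and hour was not tested. Arntl, a core clock gene, was listed at 4.07, 2.19, 1.45, 2.50 and 1.26 CPM, highest in heart 1. The list of 18 clock genes summed to between 0.111% and 0.135% of the counts, but 14 of the 18 had a CV above the median of all genes.

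Markers of cell types matched the label of the tissue. The 8 cardiomyocyte markers held 9.88% ± 0.147 of the counts, and the ventricular list of 4 genes 1.08% ± 0.0638, nearly all of it Myl2. Endothelial markers held 0.176% ± 0.00662, pericyte markers 0.131% ± 0.00463, fibroblast markers 0.261% ± 0.0597, smooth muscle markers 0.0445% ± 0.0174 and macrophage markers 0.0265% ± 0.00339. The endothelial and pericyte sums varied little between hearts (CV 3.77% and 3.54%). The fibroblast sum did not: it was 0.204%, 0.354%, 0.232%, 0.232% and 0.284%, highest in heart 2 and next in heart 5. Its largest member, Gsn, gave a mean of 1296 of the 2612 CPM of that list. The smooth muscle sum was 0.0428%, 0.0723%, 0.0240%, 0.0427% and 0.0409%, again highest in heart 2. The list of skeletal muscle genes summed to 2973 CPM, of which Ckm, also a cardiac gene, gave 2971 CPM and was the only one of 9 members at 1 CPM or more.

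Some of the atrial markers set heart 5 apart. The list of 8 atrial genes summed to 405, 663, 262, 590 and 768 CPM, but most of this is Nppa, which the ventricle also makes, at 364, 507, 233, 565 and 458 CPM. Myl7, the atrial regulatory light chain, was counted at 6.32, 24.5, 2.49, 1.58 and 107 CPM. Myl4, the atrial essential light chain, was counted at 9.59, 27.3, 5.01, 3.10 and 119 CPM. Sln was counted at 0.595, 3.87, 0.202, 0.569 and 30.8 CPM. For Myl7, Myl4 and Sln, heart 5 was far above the rest and heart 2 second. Outside the list, Mybphl, a myosin binding protein of atria, and Hamp, the iron hormone hepcidin, followed the same order of the first 2 hearts. They reached 7.83 and 4.16 CPM in heart 5. Of the other list members, Dkk3 was highest in heart 2 (81.2 CPM) with heart 5 second, and Nppa was highest in heart 4. Bmp10, which defines right atrial muscle, was at 0 in all 5 hearts. Even in heart 5 the level of Myl7 was 514 TPM, beside 16281 TPM for Myl2. The part of attached tissue in these values was not tested.

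The spread between hearts was small for most genes. The median CV was 8.84% over the 13989 genes at 1 CPM or more (quartiles 5.78% and 14.6%), against 3.90% from counting alone, and 6.95% over the 9293 genes at 10 CPM or more (quartiles 4.95% and 9.86%), against 2.84%. At 10 CPM or more, 7043 genes (75.8%) had a CV below 10%, 30 (0.323%) above 50% and 9 above 100%. At 1 CPM or more, 163 genes (1.17%) exceeded 50%. The common biological CV fitted by edgeR was 12.0%.

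**Figure D3:**
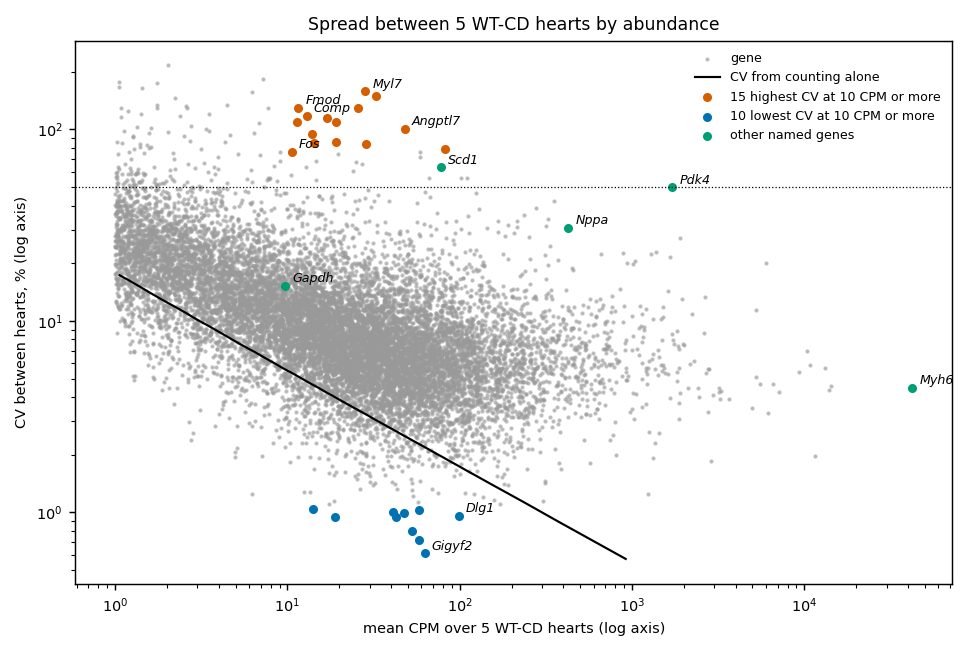
Each grey point is a gene with a mean of 1 CPM or more over 5 WT-CD hearts, placed by mean CPM and by CV between hearts in percent (both log axes), with the CV that counting alone gives as a line and a dotted line at 50%. The 15 genes of highest CV and the 10 of lowest CV at 10 CPM or more are coloured, the lowest lying beneath the counting line and the highest at 76.4% or more.

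High spread was concentrated in hearts 2 and 5. Of the 30 genes above 50% at 10 CPM or more, heart 2 was highest for 25, heart 5 for 3, and for 23 these were the 2 highest hearts. Of the 163 genes at 1 CPM or more, heart 2 was highest for 109 and heart 5 for 31. The first principal component of log2(CPM + 1) held 48.1% of the variance at 10 CPM or more and set hearts 2 and 5 (loadings 0.64 and 0.43) against hearts 1, 3 and 4 (-0.22, -0.42 and -0.43). Hearts 2 and 5 also had the most counts, 37971480 and 40600094. Without them, 89 genes exceeded 50%, of which 44 were among the 163.

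The 15 genes of highest CV among those at 10 CPM or more are given for what they are, since the values that chose them are the values shown. Myl7 (CV 158%) and Myl4 (150.0%) led, both through heart 5. Highest in heart 2 were 12 of the other 13. Fmod, fibromodulin, which binds collagen fibrils, gave 5.09, 36.7, 1.11, 0.822 and 14.2 CPM. Comp, a matrix protein of tendon and cartilage, gave 5.42, 39.2, 4.14, 2.40 and 13.5 CPM. Dkk3, a secreted protein of the Dickkopf family that is also on the atrial list, gave 7.87, 81.2, 3.80, 2.78 and 33.3 CPM. Prelp, a proteoglycan of connective tissue, gave 44.7, 194, 48.3, 38.3 and 87.7 CPM. In all 4, heart 2 was highest, heart 5 second and hearts 3 and 4 low or close to heart 1.

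Thbs1, the matricellular protein thrombospondin, Mfap4, a microfibril protein, and Prg4, lubricin, had the same 2 hearts on top. Itga8, an integrin chain, gave 11, 51.9, 6.19, 5.85 and 10.3 CPM, and Angptl7, a secreted angiopoietin-like protein, 35.9, 132, 14.3, 18.0 and 39.4 CPM. In these, and in Ccn3, Wif1 and Car3, heart 2 stood alone. Car3, a carbonic anhydrase abundant in adipocytes and slow muscle, gave 1.92, 32.7, 9.66, 3.89 and 8.57 CPM. Fos, an immediate early transcription factor, was the only one of the 15 highest in heart 1, at 22.7, 13.3, 3.67, 10.2 and 2.98 CPM. The gene just outside the 15 had a CV of 75.9%, against 76.4% for the last inside.

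The list of 30 extracellular matrix genes, none of them among these 15, was higher in the same hearts. In 25 of the 30, hearts 2 and 5 both lay above the other 3 hearts, as they did in 21.2% of all 13989 genes at 1 CPM or more. The list held 0.519%, 0.726%, 0.487%, 0.501% and 0.644% of the counts, 27 of the genes had a CV above the median of all genes, and 4 exceeded 50%. Col1a1, the main fibrillar collagen, gave 52.4, 117, 35.1, 34.7 and 92.4 CPM and Postn, periostin of activated fibroblasts, 39.0, 122, 24.7, 26.8 and 82.4 CPM. Hearts 2 and 5 lay above the other 3 hearts for both genes. The summed white adipocyte markers, 4 of 6 at 1 CPM or more, were 1.19, 20.4, 6.43, 2.53 and 6.72 CPM, highest in heart 2. The mesothelial markers, 3 of 5 at 1 CPM or more, were 9.62, 7.06, 6.26, 6.89 and 23.9 CPM, highest in heart 5, where Upk3b, a marker of the outer surface layer of the heart, was at 10.8 CPM. The part of the sampled region of the ventricle and of these other cell types in the spread was not tested.

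**Figure D4:**
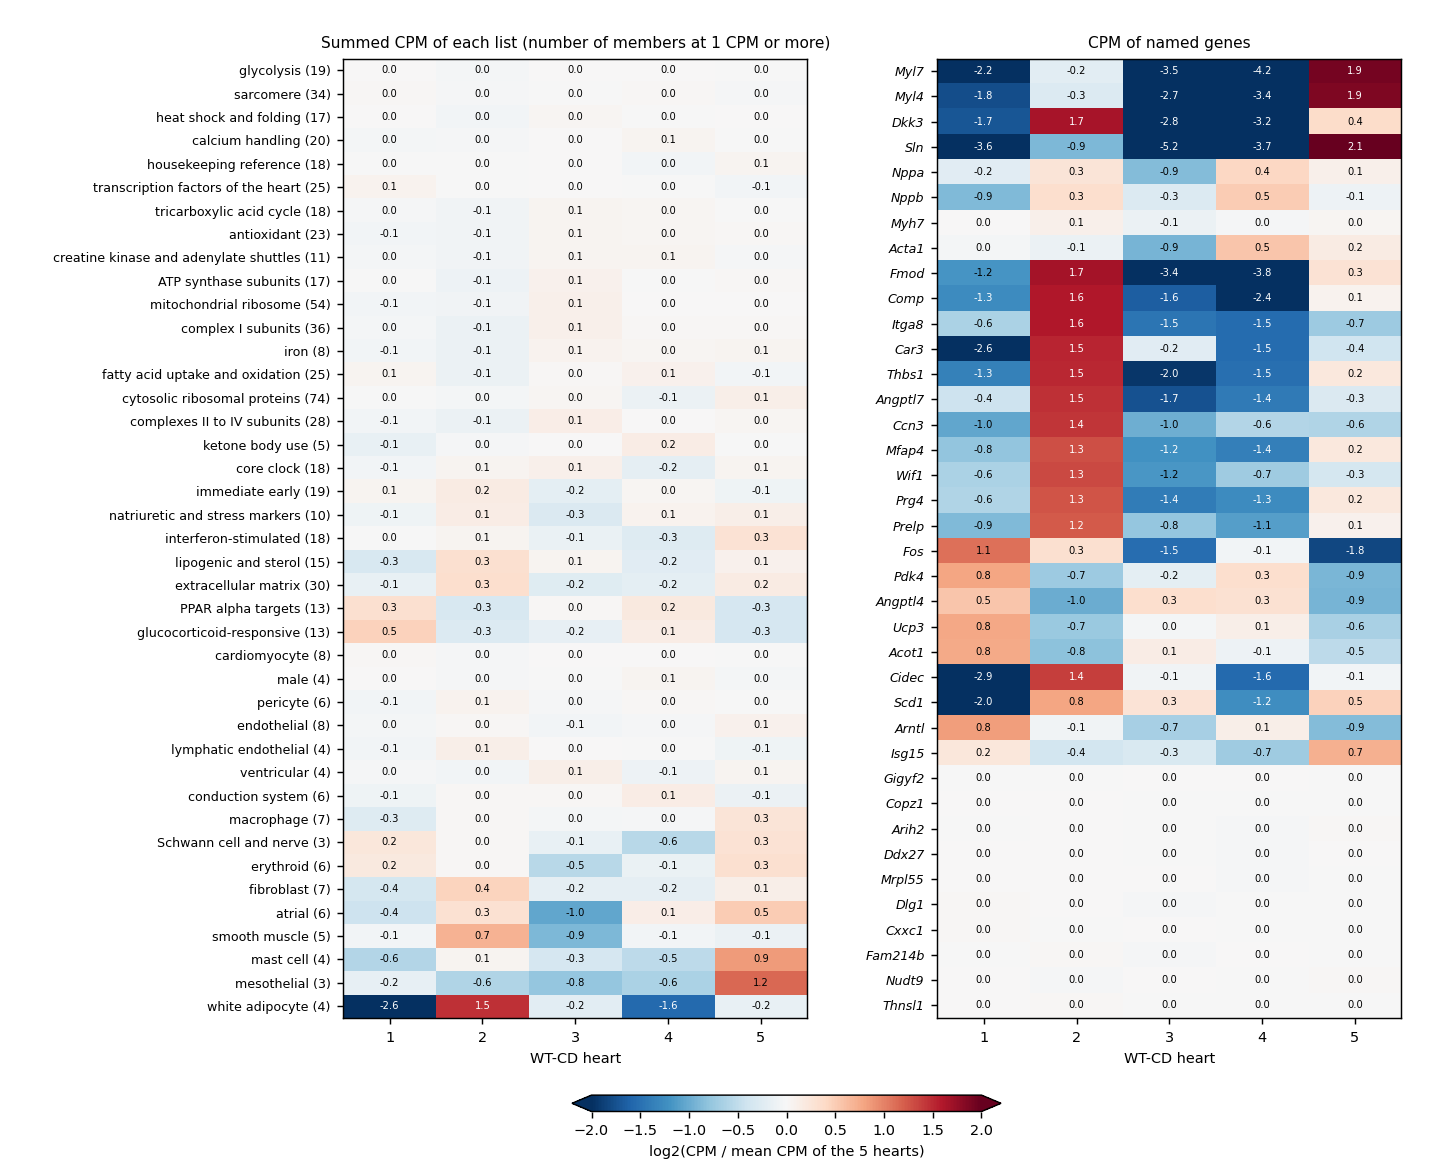
Rows are gene lists with at least 3 members at 1 CPM or more (left, number of such members in brackets) or named genes (right), columns are WT-CD hearts 1 to 5, and colour and digits give log2 of the heart's CPM over the mean of the 5 hearts. Lists of contraction and energy are pale in all 5 hearts, whereas the matrix, fibroblast, atrial, mesothelial and adipocyte lists and the genes of highest CV other than Fos are high in heart 2, heart 5 or both.

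At the other end, Gigyf2, a translational repressor, was the least variable gene at 10 CPM or more, with 62.3, 62.2, 62.8, 63.1 and 62.4 CPM (CV 0.611%). Copz1 and Arih2 (0.717% and 0.795%) followed, then Ddx27, Mrpl55, Dlg1, Cxxc1, Fam214b, Nudt9 and Thnsl1 up to 1.04%. All 10 had a CV below the one that counting alone gives, as had 446 of the 9293 genes (4.80%), so their order among themselves is within counting error.

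Whether the extremes of spread recur was read in libraries that did not choose them. Because the 15 genes had to reach 10 CPM in the WT-CD hearts, many of them through 1 or 2 high hearts, each other group was read over the genes with a mean of at least 10 CPM in that group. In the 5 WT-EMPA hearts only 7 of the 15 reached that level, with a median CV of 59.9%, and 6 of the 7 lay above the 95th percentile of the 9247 genes at that level (19.8%). In the 7 R403Q-CD hearts 14 reached it, with a median of 87.2%, and all 14 lay above the percentile (33.9%). In the 4 R403Q-EMPA hearts 8 reached it, with a median of 51.6%, and all 8 lay above the percentile (19.7%). Fmod was below 10 CPM in all 3 groups. Myl7 had a CV of 144.9% in WT-EMPA and 162.2% in R403Q-CD, and Ccn3, the 1 gene not above the percentile in WT-EMPA, had 17.9% there. The 10 least variable genes did not stand out elsewhere, with median CVs of 8.13%, 6.94% and 6.76% beside 8.11%, 11.3% and 8.497% for all genes at 10 CPM or more. Only 5, 7 and 6 of the 10 lay below the median of all genes in those groups.

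Genes that rise in the stressed heart were present at baseline. Nppb, B-type natriuretic peptide, gave 60.8, 141, 93.2, 160.1 and 104.7 CPM, with heart 4 highest and heart 1 lowest. Nppa followed a different order, with heart 3 lowest. The 10 genes of the natriuretic and stress list held 0.626% ± 0.0763 of the counts, a CV of 12.2%, and 9 of the 10 varied more than the median gene. Interferon-stimulated genes held 0.0170% ± 0.00250 over 20 genes, and immediate early genes held 0.0924% ± 0.00893 over 22. The antioxidant list held 1.89% ± 0.0741, most of it Mb. Per length, Ankrd1 led the stress list at 1669 TPM and Jund the immediate early list at 201 TPM. Heat shock genes, of which 7 of 17 share 20% or more of their windows, held 0.843% ± 0.0179, led per length by Hspb7 at 3470 ± 123 TPM.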

How the data were processed

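RNA of frozen left ventricle was read as poly(A) libraries (NEBNext Ultra II, paired ends, NextSeq 2000). The authors aligned reads to mm10 with STAR 2.6.0c, checked them with FastQC 0.11.7 and RSeQC, and deposited the count of uniquely aligned proper pairs per Ensembl gene (featureCounts, Subread 1.6.2) for nonmitochondrial genes. The authors also deposited variance-stabilized values on a log2 scale (DESeq2 1.32.0), used here only as an alternative measure of spread. The counting is given in the methods as same strand.

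From the counts, CPM was computed with the total of named and unnamed genes as denominator (Python 3.11.15, pandas 2.3.3, numpy 2.4.6). Of 55450 genes, 55190 were named by GENCODE M21 (GRCm38), and the others held at most 0.00381% of the counts. TPM used the merged exon length of that annotation. Values of 6 of the 81 paralogue families, though counted, are not reported here. Sequences, overlaps and shared 100-base windows were read from GRCm38. Library scaling and the biological CV came from edgeR 4.0.16 and DESeq2 1.42.0 (R 4.3.3), the script for which was checked on simulated data. Intervals between hearts are SDs over 5 mice, and counting CVs cover counting error only. No level was compared between groups and no p-value was computed, since a single group is described. Dixon's ratio marked hearts far from the other 4, and the CVs of the genes of extreme spread were also read in the other groups, over genes at 10 CPM or more there (a filter set after seeing the data).

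The members and gene lists were chosen with earlier results of these data known. Named genes were the 20 highest in CPM and per length, the 15 highest and 10 lowest in CV at 10 CPM or more, and members of the lists and families. Malat1, Neat1, Mhrt, Gm23935, the pseudogene pairs, Chkb, Gm44502, Angptl4, Acot1 and the list members given with values were chosen after their values were seen. Alternatives were other library scaling, filters, lengths and denominators, the log2 values, and leaving out each heart. Coding transcript length, leaving out hearts 2 and 5 together, leaving out each heart for the cell type lists, and leaving out Pdk4 were added after seeing the data.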

Additional observations from a re-analysis of the deposited data

Results flagged for a closer look

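Among 134 sets of 5 values checked for a heart that stands far from the other 4, 12 had one. Of these, 7 are among the 15 genes chosen for the highest CV over the same hearts, so their number cannot be read against the 1 in 20 that chance gives. Of the other 119 sets, 5 had one, no more than chance gives. Heart 2 was the distant one in 7, heart 5 in 3 and heart 4 in 2. Atrial light chain genes were high in heart 5, Myl7 at 106.9 CPM and Myl4 at 119.4 CPM, as was the mesothelial list at 23.9 CPM in sum. In heart 2 the high values were Itga8 at 51.9 CPM, Car3 at 32.7 CPM, Angptl7 at 131.8 CPM, Ccn3 at 37.4 CPM, Wif1 at 36.0 CPM and the summed white adipocyte list at 20.4 CPM. Also in heart 2, the share of Cacna1g among T-type calcium channel pores was lowest (93.1%). In heart 4, Actc1 was highest at 14474 CPM and the share of Hk2 among the hexokinases lowest at 61.4%. The cause of these departures was not tested.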

How the results depend on the processing

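Library totals of 29722396 counts or more limit precision mainly near 1 CPM, and the number of hearts, 5, limits every SD. No paired analysis was possible because the results come from no test, and the cages shared with R403Q-CD mice were not used as a block. With protein-coding counts as denominator the first 10 genes held 14.5% and the first 100 held 33.3%. Per length the first 100 held 38.5% and 226 genes held 50% of the total. The median CV was 8.63% with TMM library sizes, 26.2% with no filter beyond 1 count, 6.95% at 10 CPM or more, 7.69% without hearts 2 and 5, and 8.48% to 8.84% when each heart in turn was left out. The number of genes above a CV of 50% was 30 at 10 CPM or more, 64 by the SD of the deposited log2 values (above 0.68), 89 without hearts 2 and 5, and 124 (without heart 2) to 191 when each heart in turn was left out. Of the 163 genes, 153 remained above 50% with TMM, 149 with DESeq2 size factors, 127 without heart 5, 89 without heart 2 and 44 without hearts 2 and 5. Families led at 90% or more numbered 37 to 40 under every length choice and every heart left out. The leading share moved by over 10 points in 12 of 81 families with coding transcript length and in 5 with the longest transcript. Without Pdk4 the PPAR alpha targets held 0.359% of the counts and the glucocorticoid-responsive genes 0.187%, an alternative added after seeing the data. Of the lists with at least 3 members at 1 CPM or more, the white adipocyte list alone moved by over 1.5 times with a heart left out, by 1.77 times without heart 2. The 15 most variable genes were chosen over all 5 hearts, and 12 of them were highest in heart 2. A fall in their CV without heart 2 therefore follows in part from the choice. Their median CV fell from 109% to 61.6% without heart 2, where 10 of 15 still exceeded 50%. It fell to 38.0% without hearts 2 and 5, where 7 did. The cause of the spread was not tested.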
